A study of Homo sapiens with 13 samples.

Results

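The short arm of chromosome 3, 3p, was examined in 2 human small cell lung cancer (SCLC) lines by ATAC-seq, an assay in which the Tn5 transposase cuts chromatin that is open. A region belonged to 3p when it overlapped the first 87 Mb of chromosome 3 on the human assembly hg38. By this rule 3p held 4290 of the 206927 accessible regions listed for H82 and 3683 of the 174093 listed for H146, 7973 of 381020 in all. The long arm, 3q, from 94 Mb to the end of the chromosome, held 11385 regions in H82 and 9404 in H146 and served as the comparison. The 151 H82 and 121 H146 regions between 87 and 94 Mb, which surround the centromere, were left out of both arms.

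H82 is a line of the SCLC-N subtype, which the transcription factor NEUROD1 defines, and H146 is of the SCLC-A subtype. Both were wild type by their labels and were either untreated or treated with FHD-286, an inhibitor of the SMARCA4 and SMARCA2 ATPases, at 100 nM over 14 days. The H82 samples comprised 3 treated and 3 untreated, and the H146 samples 3 treated and 4 untreated. Each line is a single culture line and models 1 tumour. Each deposited list is a union over all samples of a line, so treated and untreated cells cannot be separated, the lists have no replicates and no p-value is given. The number of libraries, their depth, which is unknown, and the number of DNA copies of 3p all change with the line and cannot be told apart. A region within 1 kb of the start of NEUROD1 was present in H82 and not in H146, and within 10 kb of that start regions covered 50.6% of the bases in H82 and 19.0% in H146.

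Loss of 3p is among the most common changes in SCLC and in smoking-related lung cancer, and it is often seen early. The arm carries many genes proposed as tumour suppressors. RASSF1 encodes a scaffold of the RAS and Hippo pathways whose long isoform, RASSF1A, is often silenced by methylation of its CpG-rich promoter. RARB encodes a retinoic acid receptor, and its second promoter, RARB2, is switched on by retinoic acid through a response element. BAP1 is a nuclear deubiquitinase, FHIT is a hydrolase whose gene spans a common fragile site, and ROBO1 is the receptor of the SLIT guidance cues. An accessible region shows that a site was open in some sample of the line. It does not measure how many copies of the arm a cell carries, nor whether a gene was transcribed.

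Promoter sequences were chosen to show starts on 3p that were listed in both lines or in 1 line alone. They were taken from RefSeq (GRCh38.p14), run 5′ to 3′ on the strand of the gene, and hold the 250 bases before the start. Capitals mark CpG dinucleotides, the sites of DNA methylation. The upstream RARB promoter (chr3:24829071-24829320, plus strand) and the 5′ promoter of ROBO1 (chr3:79767999-79768248, minus strand) were overlapped by a region in both lines. The 5′ promoter of ATP2B2, which encodes a plasma membrane calcium pump (chr3:10708117-10708366, minus strand), was overlapped in H146 only. The promoter of CAV3, the caveolin of muscle (chr3:8733552-8733801, plus strand), was overlapped in H82 only.
RARB upstream promoter: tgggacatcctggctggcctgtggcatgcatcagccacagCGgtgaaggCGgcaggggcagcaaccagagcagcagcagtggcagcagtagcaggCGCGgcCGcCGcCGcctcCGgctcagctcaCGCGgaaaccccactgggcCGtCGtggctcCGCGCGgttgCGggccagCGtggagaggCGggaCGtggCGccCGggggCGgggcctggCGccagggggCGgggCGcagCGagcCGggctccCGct
ROBO1 5′ promoter: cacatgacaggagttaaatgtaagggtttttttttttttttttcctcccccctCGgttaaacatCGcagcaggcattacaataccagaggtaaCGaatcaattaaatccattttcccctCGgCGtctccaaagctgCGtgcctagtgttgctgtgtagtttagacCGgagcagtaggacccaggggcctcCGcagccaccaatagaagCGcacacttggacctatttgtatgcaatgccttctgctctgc
ATP2B2 5′ promoter: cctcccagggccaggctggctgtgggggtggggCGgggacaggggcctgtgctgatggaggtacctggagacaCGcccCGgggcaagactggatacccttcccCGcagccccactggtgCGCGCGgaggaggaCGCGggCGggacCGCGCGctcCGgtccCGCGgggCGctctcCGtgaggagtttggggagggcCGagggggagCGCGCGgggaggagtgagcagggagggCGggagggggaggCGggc
CAV3 promoter: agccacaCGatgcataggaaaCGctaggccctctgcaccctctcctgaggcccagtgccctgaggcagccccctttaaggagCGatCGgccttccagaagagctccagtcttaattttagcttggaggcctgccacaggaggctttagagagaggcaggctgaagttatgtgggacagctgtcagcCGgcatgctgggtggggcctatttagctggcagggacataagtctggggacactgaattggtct

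These windows held 28 CpGs at RARB, 24 at ATP2B2, 9 at ROBO1 and 5 at CAV3, against a median of 11 over the same 250 bases of all 35116 RefSeq promoters. The CpG-rich windows thus included one that was listed in both lines and one listed in H146 only. At RARB2 the sequence of interest is the response element, a direct repeat of GTTCA, shown here in capitals within 30 bases (chr3:25428204-25428233, plus strand). Its centre lies 45 bp before the canonical RARB start.
RARB2 response element: gggtaggGTTCACCGAAAGTTCActcgcat
An H82 region of 476 bp (chr3:25427927-25428402) overlapped this element, and the nearest H146 region lay 8003 bp from the canonical start. The pattern GTTCACNNNNNGTTCA, searched on both strands, was found in 6 of 35116 RefSeq promoter windows of 300 bases (0.0171%). It follows the RARB2 element, so RARB matches by construction. The other genes with such a window were CYP26A1, the retinoic acid hydroxylase, COL24A1, LOC102723678 and LOC102723709. A match is a string of letters and does not show that a receptor was bound.

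Accessible regions were much sparser on 3p than on 3q in both lines. H82 had 49.3 regions per Mb on 3p and 109 per Mb on 3q, a ratio of 0.452 (95% counting interval 0.436 to 0.468). H146 had 42.3 per Mb on 3p and 90.2 on 3q, a ratio of 0.470 (0.452 to 0.488). These intervals, like all those given here, treat regions as independent and cover counting error only. Regions covered 3.32% of 3p in H82 and 2.92% in H146, and 8.57% and 7.20% of 3q. The arms carry similar numbers of genes, with 501 protein-coding starts on 3p (5.76 per Mb) and 569 on 3q (5.46 per Mb), and similar GC content, at 40.4% and 39.2%. When the chromosomes and the 2 arms of chromosome 3 were ranked from the fewest regions per Mb, 3p was at place 4 of 25 in H82 and at place 7 of 25 in H146. 3q was at places 24 and 23. The difference between the arms thus came from a 3p below most chromosomes and a 3q above most of them. Against the other autosomes 3p had a ratio of 0.712 in H82 and 0.723 in H146. Counts of the other chromosomes were divided by their full length, with centromeres and unknown bases. The arms left out the bases around the centromere. These ranks and ratios thus rest on unlike lengths, which lowers the values of whole chromosomes, and close ranks could change.

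The low density of 3p was spread along the arm. In 1 Mb bins the median was 46.0 regions on 3p and 102 on 3q in H82, and 40.0 and 88.0 in H146. The quartiles of the 3p bins lay at 33 and 64.5 regions in H82 and at 29 and 52 in H146. Of the 87 bins of 3p, 62 in H82 and 64 in H146 lay below the genome-wide median of 62.5 and 51.5 regions, against 15 and 23 of the 105 bins of 3q.

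**Figure D1:**
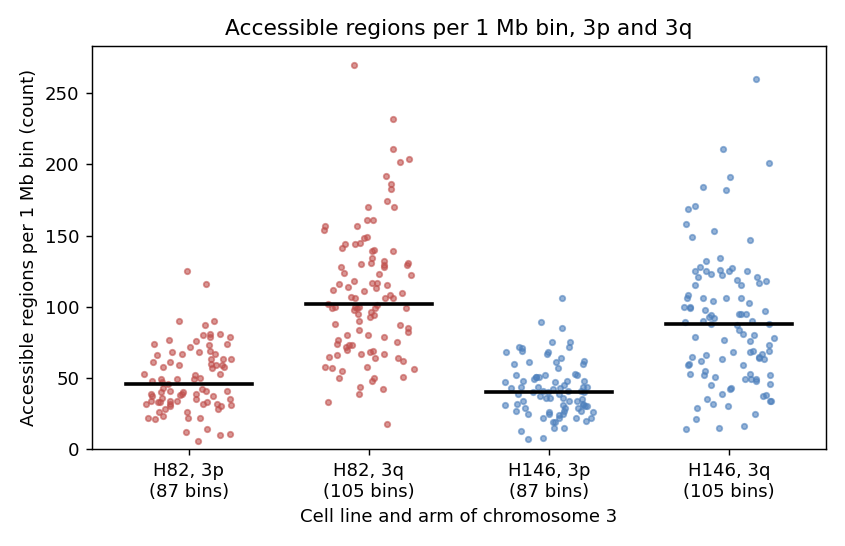
Accessible regions per 1 Mb bin (vertical axis, count) on 3p and 3q in H82 and H146 (horizontal axis). Each point is a bin and the black line is the median, 46.0 against 102 regions in H82 and 40.0 against 88.0 in H146. The clouds of the arms overlap and are shifted in both lines.

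Bins with more gene starts had more regions, and at each level of gene content 3p lay below 3q. In bins with no protein-coding start the H82 median was 33.0 regions on 3p (14 bins) and 56.5 on 3q (16 bins), and the H146 median was 33.0 and 45.5. With 1 to 4 starts the medians were 38.0 and 100.0 in H82 and 36.5 and 79.0 in H146. With 10 or more starts, 19 bins of 3p had medians of 68.0 in H82 and 61.0 in H146, and 16 bins of 3q had 136 and 103. On the other autosomes bins with no start had medians of 29 in H82 and 26 in H146, below those of 3p, while bins with 10 or more starts had 103 and 81, above those of 3p. With 1 to 4 starts the other autosomes had medians of 53 and 44, and with 5 to 9 starts 72 and 59, against 62 and 45.5 on 3p. Bins of 3p that held a start thus lay below those of the other autosomes in all 3 levels, and bins without a start did not.

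The kinds of regions differed between the arms. Regions within 1 kb of a protein-coding start were as frequent on 3p as on 3q, at 4.30 and 4.16 per Mb in H82 (ratio 1.03, interval 0.900 to 1.19) and 3.95 and 4.02 per Mb in H146 (ratio 0.984, interval 0.853 to 1.14). This class depends on the number of starts, 5.76 per Mb on 3p and 5.46 on 3q, and most starts of both arms had a region. Regions farther from a start had ratios of 0.429 in H82 and 0.446 in H146. Promoter regions were therefore 8.72% of the 3p regions in H82 and 9.34% in H146, against 3.81% and 4.46% on 3q. By width, the lowest ratios were at the extremes. Regions of 2 kb or more had a ratio of 0.258 in H82 and 0.220 in H146, those of exactly 200 bp, the narrowest listed, 0.308 and 0.283, and those of 500 bp to under 1 kb 0.511 and 0.573. By location of the centre, 49.98% of the H82 and 49.2% of the H146 regions of 3p lay in introns outside promoters, and 35.9% and 36.5% were intergenic, against 49.0% and 48.5% intergenic on 3q. Protein-coding genes themselves cover 55.8% of 3p and 47.5% of 3q.

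**Figure D2:**
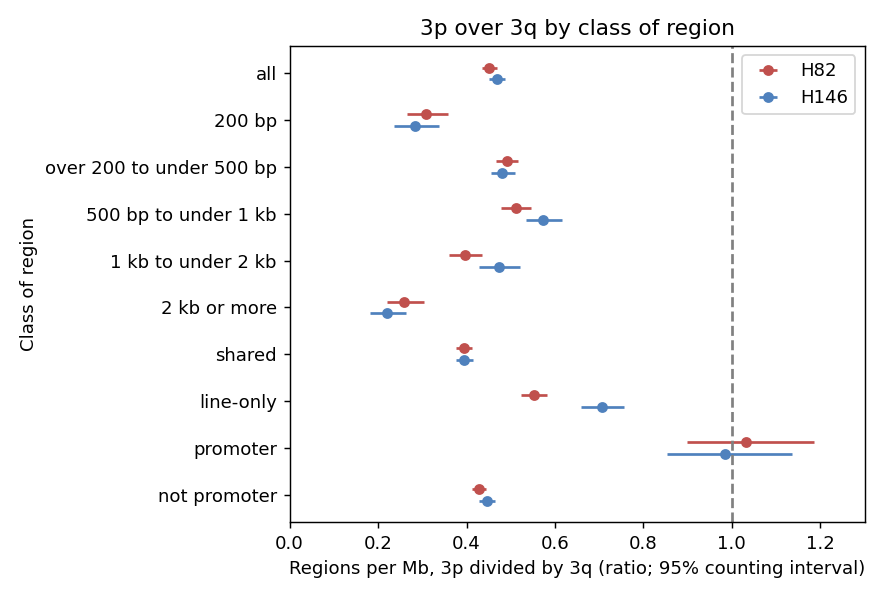
Regions per Mb on 3p divided by regions per Mb on 3q (horizontal axis, ratio) for classes of region (vertical axis) in each line; bars are 95% counting intervals and the dashed line marks equal density. The promoter class sits at 1.03 in H82 and 0.984 in H146, and every other class lies below 1.

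The 2 lines shared fewer of their regions on 3p than on 3q. A region was shared when it overlapped a region of the other line by at least 1 bp. On 3p 2358 H82 regions (55.0%, interval 53.5 to 56.5) and 2361 H146 regions (64.1%, interval 62.5 to 65.7) were shared, against 63.1% and 76.1% on 3q. Across the genome the shares were 59.3% and 70.5%. From the lowest share, 3p was at place 11 of 25 in H82 and at place 3 of 25 in H146, where chromosomes Y and 4 were lower. Shared regions had a 3p to 3q ratio of 0.393 in H82 and 0.395 in H146, and line-only regions one of 0.552 and 0.706. The 3q surplus was thus larger among the regions counted as shared. An overlap of 1 bp is met more readily where the other line covers more bases. Regions covered 3.32% of 3p and 8.57% of 3q in H82, and 2.92% and 7.20% in H146. How much of the lower shared percentage on 3p comes from this was not tested. Within each class of width the shared percentage on 3p was also below that on 3q. For regions of 500 bp to under 1 kb it was 61.0% against 66.9% in H82 and 81.5% against 89.9% in H146, and for regions of 2 kb or more the arms were close, at 92.1% and 93.1% in H82 and 98.5% and 99.6% in H146.

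Widths were close on the arms in the middle of the range. The median width on 3p was 464 bp in H82 (quartiles 310 and 802) and 494 bp in H146 (326 and 854), against 475 bp and 479 bp on 3q. On 3p shared regions were wider than line-only regions, with medians of 566 and 390 bp in H82 and 663 and 331 bp in H146. Wide regions were rare: 177 of 3p in H82 (4.13%) and 134 in H146 (3.64%) reached 2 kb, against 7.22% and 7.77% on 3q. Over the 1 Mb bins of 3p the median width ran from 339 to 706 bp in H82 and from 371 to 748 bp in H146, and the shared percentage from 27.1% to 100.0% and from 30% to 86.7%.

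The widest 3p regions lay in the gene-dense middle of the arm and at single promoters. In H82 they were chr3:50121237-50127636 (6400 bp), between genes and 30609 bp from the start of SEMA3F, which encodes a secreted semaphorin; chr3:46659186-46664463 (5278 bp), 31880 bp from the start of ALS2CL; and chr3:50201623-50206443 (4821 bp), at the start of SLC38A3, a glutamine transporter. In H146 they were chr3:16511845-16517617 (5773 bp) at the start of RFTN1, which encodes a lipid-raft linker protein, chr3:46659186-46664940 (5755 bp) and chr3:37860018-37864642 (4625 bp) at the start of CTDSPL, a small phosphatase that acts on RB1. The region near ALS2CL was the second widest in both lines, with the same first base, and all 6 were shared. The widest line-only regions of 3p were chr3:68983781-68987219 in H82 (3439 bp, in an intron of EOGT) and chr3:16404389-16407013 in H146 (2625 bp, in an intron of RFTN1).

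Relative to the genome, 3p was alike in the 2 lines. H82 had 1.17 times as many 3p regions as H146, and 1.19 times as many over the genome, which gives a log2 ratio of -0.03 (interval -0.09 to 0.03). On 3q the log2 ratio was 0.03 (-0.01 to 0.07). Over 17 segments of 5 Mb in the first 85 Mb, the densities ran from 19.6 to 85.4 regions per Mb in H82 and from 19 to 75 in H146. The counting interval of the log2 ratio lay below 0 in 2 of the 17 segments, 10 to 15 Mb (-0.33, 355 H82 and 375 H146 regions) and 25 to 30 Mb (-0.40, 153 and 170 regions), and above 0 in 0. Along 3p the lines kept close to each other, and both had their lowest density in the segment from 80 to 85 Mb.

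The lines parted on the other side of the centromere. The 11 Mb of 3q from 94 to 105 Mb, limits set after the values were seen, had 888 regions in H82 (80.7 per Mb) and 333 in H146 (30.3 per Mb), a log2 ratio of 1.17 relative to the genome. There 28.8% of the H82 and 77.2% of the H146 regions were shared. From 105 Mb on the densities were 113 and 97.2 per Mb, with a log2 ratio of -0.04. This value averages over segments of 5 Mb that differed in both directions. The log2 ratio was 0.421 (interval 0.231 to 0.611) at 110 to 115 Mb and 0.623 (0.43 to 0.816) from 195 Mb to the end. At 155 to 160 Mb it was -0.355 (-0.527 to -0.183). In windows of 5 Mb from the inner edge of 3q, the first in H146, at 24.2 regions per Mb, and the second, at 34.0, lay within the range of the 3p windows. In H82 the first, at 65, lay within that range and the second, at 102, above it. DNA copies and detection cannot be told apart here.

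**Figure D3:**
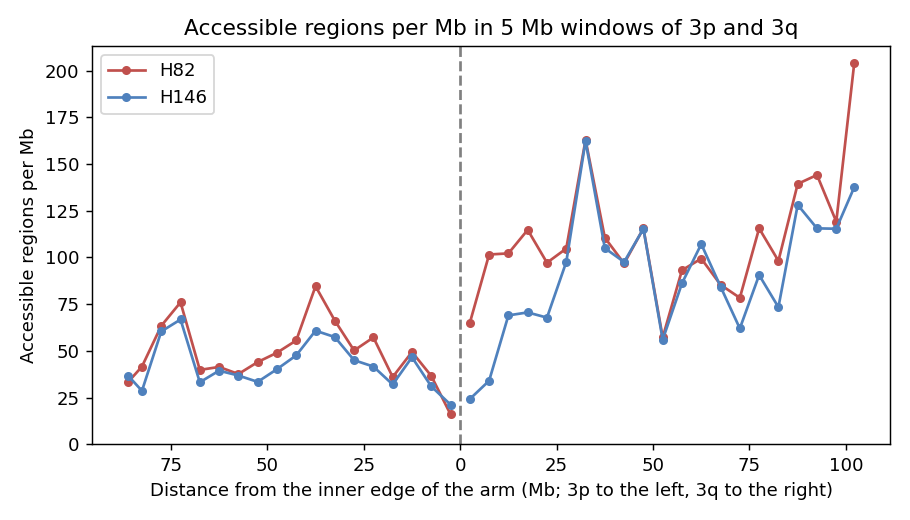
Accessible regions per Mb (vertical axis) in windows of 5 Mb, by distance from the inner edge of each arm (horizontal axis, Mb; the last window of each arm is shorter), 3p to the left and 3q to the right. The 2 lines run together along 3p, at 16 to 84.6 regions per Mb in H82 and 21.2 to 66.8 in H146, and differ in the first 10 Mb of 3q, at 65 and 102 in H82 against 24.2 and 34.0 in H146. They also differ in other windows of 3q, such as the last, at 203.9 in H82 and 137.6 in H146.

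Few 1 Mb bins of 3p differed by 2 times or more between the lines. The log2 ratio relative to the genome was at least 1 in 2 of 87 bins and at most -1 in 2 of 87. Genome-wide 6.62% of 2884 bins reached 1 and 1.53% reached -1, and counts of 2 are too few to set 3p apart from either share. Of the 87 bins, 74 lay between -0.5 and 0.5, and the median was -0.09.

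The bins with the most H82 regions relative to H146 were that from 4 to 5 Mb, with 48 H82 and 15 H146 regions (log2 ratio 1.40), and that from 35 to 36 Mb, with 22 and 8 (1.16). The first holds the starts of ITPR1, the calcium release channel of the endoplasmic reticulum, BHLHE40, a clock-linked repressor, SETMAR and SUMF1, and the second that of ARPP21, a phosphoprotein of striatal neurons. Also high were 3 to 4 Mb with CRBN (35 and 19, 0.62) and 69 to 70 Mb with MITF (50 and 29, 0.53). The bins with the fewest were 26 to 27 Mb with LRRC3B (12 H82 and 25 H146 regions, -1.28), 85 to 86 Mb, which has no start (14 and 26, -1.12), 83 to 84 Mb (10 and 15, -0.81), 75 to 76 Mb with ROBO2 (34 and 48, -0.74) and 13 to 14 Mb with HDAC11 and WNT7A (76 and 106, -0.73). In the bin from 85 to 86 Mb all 14 H82 regions (100.0%) were shared and 53.9% of those of H146, and in that from 4 to 5 Mb 27.1% of the H82 and 86.7% of the H146 regions were shared. In both bins the line with fewer regions had the higher shared percentage. This follows from the counts, since shared regions are nearly equal in number in both lines.

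**Figure D4:**
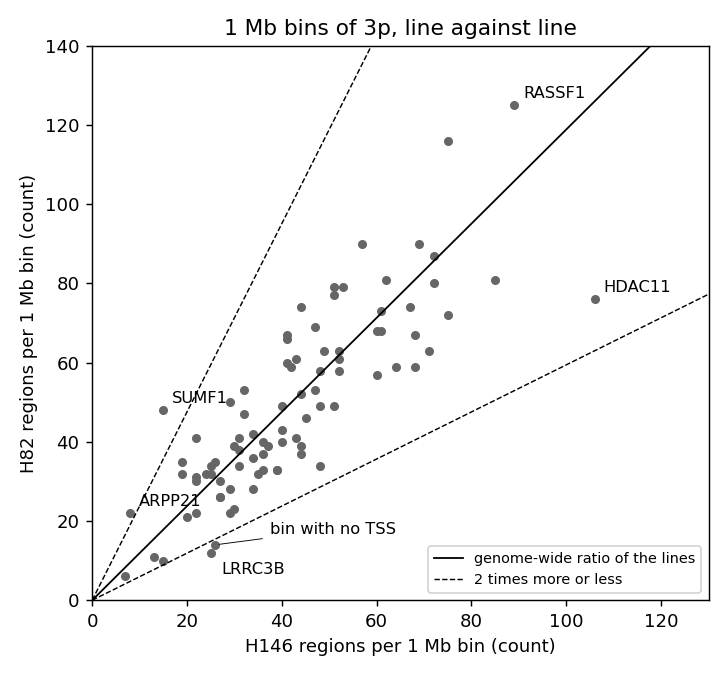
Regions per 1 Mb bin of 3p in H146 (horizontal axis, count) and H82 (vertical axis, count); each point is a bin, the full line is the genome-wide ratio of the lines and the dashed lines mark 2 times more or less. The 4 outermost bins carry the name of their last listed gene (SUMF1, ARPP21, LRRC3B) or of none, and the bins of RASSF1 (125 H82 and 89 H146 regions) and HDAC11 (76 and 106) are marked.

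Genes on 3p with the largest excess of regions in a line were mostly long. The excess is a plain difference of counts, not scaled to gene length or line totals, so long genes can reach larger values. Counting the gene and 10 kb on each side, the excess of H82 was largest at SUMF1 (40 H82 and 15 H146 regions), which activates sulfatases, IQSEC1 (57 and 35), an exchange factor for ARF GTPases, CNTN4 (60 and 42), a neuronal contactin, CADPS (37 and 23), which primes dense-core vesicles for release, and CACNA2D2 (31 and 18), a calcium channel subunit, with PRICKLE2 (40 and 27) equal to it in excess. The excess of H146 was largest at FOXP1 (32 H82 and 48 H146 regions), a forkhead repressor, with the overlapping model ENSG00000285708 (43 and 59), then CADM2 (16 and 29), a synaptic adhesion protein, CACNA2D3 (56 and 67), another calcium channel subunit, and ATP2B2 (27 and 35), with GRM7 (34 and 42) and WNT7A (4 and 12) equal to it in excess. In FOXP1 29 of the 31 H82 regions were shared (93.6%), and 28 of 47 in H146 (59.6%). In CADM2 all 16 H82 regions were shared (100.0%) and 55.2% of those of H146. Over the 21 genes of 3p that are at least 500 kb long, the median was 40.2 regions per Mb in H82 and 36.5 in H146, and 15 had more regions in H82. H82 had 1.17 times as many regions as H146 over all of 3p, so this count does not set long genes apart.

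The 3 longest stretches of 3p without any H82 region lay in its gene-poor inner part, and those without an H146 region lay farther apart. The longest in H82 was chr3:83004987-83523643 (519 kb), which held 4 H146 regions and no gene, followed by chr3:84108971-84476615 (368 kb) and chr3:82338180-82654762 (317 kb). In H146 the longest was chr3:35665031-36083131 (418 kb), which includes part of ARPP21 and held 11 H82 regions, followed by chr3:84108971-84476588 (368 kb) and chr3:39813569-40152510 (339 kb, in MYRIP, a linker of secretory granules to myosin). 1 stretch of H82 and 0 of H146 reached 500 kb. The second longest stretch was the same in both lines but for its last bases. No stretch of either line among the 10 longest held the start of a listed tumour suppressor gene.

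Most gene starts of 3p were open in both lines. With a window of 1 kb around the 5′ end, 387 of 501 protein-coding genes (77.3%) had a region in both lines, 33 (6.59%, interval 4.58 to 9.13) in H82 only, 6 (1.20%, interval 0.441 to 2.59) in H146 only and 75 (15.0%) in neither. Genome-wide the shares were 75.4%, 5.1%, 1.86% and 17.7% of 20033 genes, each within the counting interval of the 3p share. On 3q they were 78.9%, 4.75%, 2.29% and 14.1%.

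The base composition of the starts went with these classes. Around the canonical start, in the 500 bp on each side, the ratio of observed to expected CpG had a median of 0.795 in the 400 genes of 3p open in both lines. It was 0.280 in the 31 genes open in H82 only, 0.225 in the 7 open in H146 only and 0.214 in the 63 open in neither. The starts listed in a single line were thus mainly CpG-poor, with CAV3, shown above, as an example.

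The 33 starts listed in H82 only included PPARG, the nuclear receptor of adipocytes, FEZF2, a zinc-finger factor of cortical projection neurons, MST1R, a receptor kinase, PRKCD, a protein kinase C, PTH1R, the parathyroid hormone receptor, TNNC1, the troponin C of heart and slow muscle, and RASSF1. The 6 in H146 only were ATP2B2, CCR8, a chemokine receptor, VIPR1, the receptor of vasoactive intestinal peptide, FBXW12, LRTM1 and C3orf14. The 5′ end is not always the main start. Of the 33, 25 also lacked an H146 region at the start of the canonical transcript, and of the 6, 3 lacked an H82 region there. At the canonical start PRKCD, ATP2B2 and VIPR1 were listed in both lines, and LRTM1 in H82 only. RASSF1, RARB and LTF were the listed tumour suppressor genes whose canonical start was listed in a single line.

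RASSF1 was open at its short-isoform start in both lines and had no region over its long-isoform start. The short-isoform start at chr3:50337464 lay within a region of 1908 bp in H82 (chr3:50336696-50338603) and of 1653 bp in H146 (chr3:50336665-50338317). The canonical start at chr3:50340836, that of RASSF1A, was covered in neither line. The nearest H82 region was 227 bp wide (chr3:50341162-50341388) and lay 326 bp away, and the nearest H146 region lay 2096 bp away. The call of RASSF1 as listed in H82 only rests on that narrow region.

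RARB was listed differently at its promoters. The upstream start at chr3:24829323 was covered in both lines, by 1769 bp in H82 (chr3:24828984-24830752) and 2002 bp in H146 (chr3:24828919-24830920). The canonical RARB2 start at chr3:25428263 was covered in H82 alone, by the region over the response element shown above. The 910 kb of the gene held 35 H82 and 38 H146 regions, of which 17 (48.6%) and 17 (44.7%) were shared. The lines thus had a like number of regions in RARB and shared the smaller part of them. Over all of 3p 55.0% and 64.1% were shared. Long genes of 3p varied, with 39.6% and 47.5% at ERC2 and 63.2% and 70.6% at PTPRG, so low sharing was not particular to RARB.

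BAP1 was open alike in both lines, with a region of 1831 bp in H82 (chr3:52409452-52411282) and 1666 bp in H146 (chr3:52409477-52411142) over its start at chr3:52410008. Within 10 kb of this start H82 had 3 regions covering 13.2% of the bases, and H146 had 4 covering 13.6%.

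ROBO1 had wider regions over its starts in H146. Its 5′ start at chr3:79767998 lay in 585 bp of H82 (chr3:79767598-79768182) and in 2440 bp of H146 (chr3:79765836-79768275). The start at chr3:79019459 was covered by 2364 bp and 2650 bp. The start of ROBO1-210 at chr3:78670242 was covered by 1212 bp in H146, and the nearest H82 region lay 1583 bp away. Over the whole gene, 1171 kb long, the order was the other way, with 60 regions in H82 and 51 in H146, 26 and 18 of them line-only. ROBO2, the neighbouring receptor gene, had 70 and 62. H82 had 1.17 times as many regions as H146 over all of 3p, so these counts do not set the genes apart. In ROBO1 56.7% of the H82 and 64.7% of the H146 regions were shared, close to the 55.0% and 64.1% of all 3p.

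FHIT, which spans 1504 kb, had 57 H82 and 53 H146 regions, or 37.9 and 35.2 per Mb, below the 49.3 and 42.3 of the whole arm. These values were close to the medians of the 3p genes of at least 500 kb, 40.2 and 36.5 per Mb. Its start at chr3:61251452 was covered by 746 bp in H82 and 596 bp in H146. Its longest stretch without a region was 112 kb in H82 and 133 kb in H146, shorter than the longest of ROBO1 (158 and 171 kb), so neither line had a hole in FHIT of the size seen elsewhere on 3p. PTPRG, a receptor phosphatase gene next to FHIT, had 77.4 and 69.3 regions per Mb.

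The tumour suppressor loci were treated as a list of 39 genes, chosen with earlier results of these data known. By the 5′ end 36 had a region in both lines (92.3%, against 77.3% of all 501 genes of 3p), 1 in H82 only (RASSF1), 0 in H146 only, and 2 in neither (LIMD1 and WNT5A, both listed in both lines at the canonical start). Within 10 kb of the start the median was 3 regions in H82 and 2 in H146, against 2 and 2 for all genes of 3p. H82 had more regions at 20 of the 39 loci, H146 at 9, and 10 were equal, against 188, 81 and 232 of the 501. Windows of neighbouring genes overlap, above all around RASSF1, so some regions were counted at several loci and the loci are not independent. VHL, the ubiquitin ligase subunit that targets HIF, XPC, of nucleotide excision repair, and FANCD2, of the Fanconi pathway, had 1 region each in both lines. PARP3, a DNA repair ADP-ribosyltransferase, had 4 H82 regions and 1 H146 region, covering 28.1% and 9.67% of the window.

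**Figure D5:**
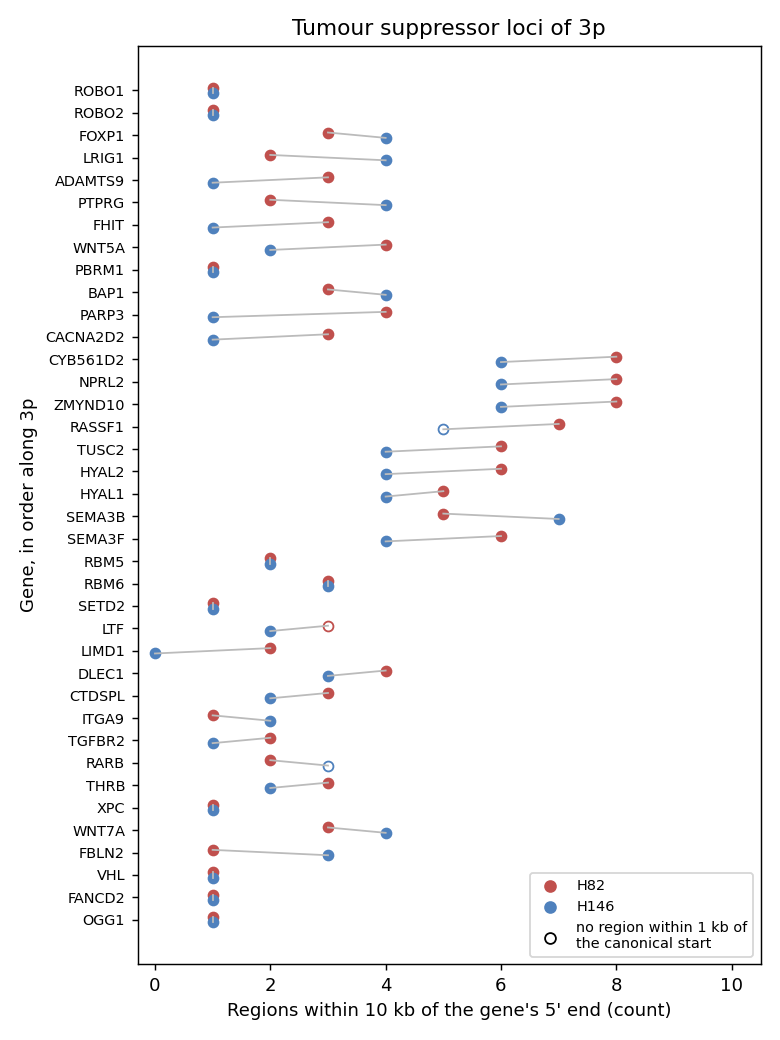
Regions within 10 kb of the 5′ end (horizontal axis, count) at listed tumour suppressor genes in their order along 3p (vertical axis), H82 and H146 joined by a line. Open symbols, at RASSF1 and RARB in H146 and LTF in H82, mark a canonical start with no region within 1 kb. ZMYND10, NPRL2 and CYB561D2 have the most regions in H82, 8 each, and have 6 each in H146. In H146 SEMA3B has the most, 7.

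Among the listed tumour suppressor genes the highest counts came from the cluster around RASSF1. In 115 kb from SEMA3B to the 3′ end of CACNA2D2 (chr3:50250000-50365000), which hold 14 protein-coding starts, there were 31 H82 regions covering 28.8% of the bases and 26 H146 regions covering 18.5%. Of these 20 and 23 were shared, and 11 and 3 were line-only. Over all of 3p the shared part was smaller, at 55.0% in H82 and 64.1% in H146. The genes lie so close that 10 kb windows overlap, and the 8 H82 and 6 H146 regions of NPRL2, a GATOR1 subunit, and of CYB561D2 were equal in number and in covered share, at 25.2% and 21.2%. At SEMA3B, a semaphorin, H82 had 5 regions covering 48.5% and H146 had 7 covering 28.2%, so the line with fewer regions had the larger open area. The bin that holds the cluster, from 50 to 51 Mb, was the fullest of 3p in H82, with 125 regions and 89 in H146.

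Chromatin regulators of 3p were open in both lines at all 13 listed starts, against 77.3% of the 501 genes of 3p. They include PBRM1 and SMARCC1, subunits of the SWI/SNF complexes whose ATPases FHD-286 inhibits, and SETD2, a histone H3 methyltransferase. PBRM1 had 1 region within 10 kb in each line and SMARCC1 had 3 in H82 and 2 in H146. Within the gene PBRM1 had 10 and 5 regions and SMARCC1 8 and 4. HDAC11, a histone deacetylase, stood out with 1 H82 region and 5 H146 regions within 10 kb. The median over the 13 genes was 3 in H82 and 2 in H146.

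Of 32 neuronal genes of 3p, 27 had a start listed in both lines, 1 in H146 only (ATP2B2), and 4 in neither by the 5′ end (SCN10A, CCK, CACNA1D and SYNPR). The share in both lines was 84.4%, against 77.3% of all genes of 3p, of which 15.0% were listed in neither. At the canonical start CACNA1D, a calcium channel gene, and SYNPR, which encodes a synaptic vesicle protein, were covered in both. SCN10A, a sodium channel of sensory neurons, had its nearest region 10172 bp away in H82 and 4206 bp in H146. CCK, the gene of the neuropeptide cholecystokinin, was covered in both at the start of CCK-201 (chr3:42264903). ATP2B2 was covered in H146 over its 5′ start at chr3:10708007 by 794 bp (chr3:10707571-10708364), and the nearest H82 region lay 1189 bp away. Its canonical start at chr3:10505586 was covered in both, by 1838 and 1250 bp. Within 10 kb of the 5′ end the median was 2 regions in each line, the same as for all genes of 3p, with 9 genes higher in H82, 7 in H146 and 16 equal.

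Of 15 transcription factor genes, 13 had a start listed in both lines and 2, PPARG and FEZF2, in H82 only, a class that held 6.59% of all genes of 3p. The share in both lines was 86.7%, against 77.3% of all genes of 3p. By the canonical start 11 were listed in both lines (73.3%, against 79.8% of all genes of 3p), 3 in H82 only and 1 in neither. Of all genes of 3p, 6.19% were listed in H82 only and 12.6% in neither by this start. FEZF2 had 6 H82 regions within 10 kb, covering 21.2% of the window, and 1 in H146 covering 2.58%. PPARG had an H82 region of 1234 bp (chr3:12287650-12288883) at its start, and the nearest H146 region to its canonical start lay 59361 bp away. PPARG held 3 regions in H82 and 0 in H146 over the whole gene. EOMES, a T-box factor, had 5 regions in each line, and BHLHE40 had 5 in H82 and 3 in H146.

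Sequence words of lineage factors were counted in line-only regions of 3p and 3q. The words were TAATCC, read by OTX2 and related homeodomain factors, TGTTTAC, read by FOXA factors, and the E-boxes CAGATG, favoured by NEUROD1, and CAGCTG. Both strands were searched, and none of the words contains another. In the middle 200 bp of the region, TAATCC occurred in 640 of 1932 H82-only regions of 3p (33.1%), in 7.41% of the 1322 H146-only regions and in 7.68% of the 2358 shared regions. On 3q it occurred in 29.3%, 9.94% and 9.43%. TGTTTAC occurred in 2.90% of the H82-only and 8.85% of the H146-only regions of 3p.

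CAGATG occurred in 29.6% of the H82-only regions of 3p (interval 27.6 to 31.7), in 17.3% of the H146-only and in 15.9% of the shared regions, and on 3q in 20.5% (19.3 to 21.8), 16.4% and 15.1%. CAGCTG occurred in 18.4%, 20.9% and 16.5% on 3p and in 12.7%, 14.3% and 15.6% on 3q. In H82-only regions both E-boxes were thus more frequent on 3p than on 3q. In H146-only regions CAGCTG was more frequent on 3p (interval 18.7 to 23.2, against 12.9 to 15.8 on 3q), and the intervals of CAGATG overlapped (15.3 to 19.4 and 14.9 to 18.0). Per kb of H82-only sequence, CAGATG occurred 1.48 times on 3p and 1.09 times on 3q, and CAGCTG 0.874 and 0.686 times. A match does not show that a factor was bound.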

How the data were processed

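ATAC-seq libraries of H82 and H146 were trimmed by the authors with Trim Galore 0.4.4 and aligned to hg38 with Bowtie2 2.3.4, and duplicate reads were removed with Picard. Regions were called per sample with MACS2, filtered against a blacklist and merged within 500 bp. The deposited values are chromosome, start (counted from 0) and end of each region in bp, pooled over untreated and treated samples; columns of per-sample values numbered 0. H146 was sequenced in 2 batches, which the pooled lists do not separate. A test of FHD-286 on read counts had been planned and was not run, since the lists hold no counts. Depth is unknown, and merging lets a width hold several sites.

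Chromosomes 1 to 22, X and Y were used, and 1 mitochondrial region per line was left out. Regions were assigned to 1 Mb bins by their start, and bins with at least 10 regions over both lines were used, with 0.5 added to each count for log2 ratios scaled to the genome-wide totals. Starts came from GENCODE release 44 (hg38). Shared regions overlapped by at least 1 bp; bedtools 2.31.1 gave 0 differences. Intervals are 95% (Poisson on the log scale for ratios, Clopper-Pearson for shares). Overlap and bin ratios were tested on simulated regions. Python 3.11.15, pandas 2.3.3 and pysam 0.24.0 were used.

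RASSF1, RARB, BAP1, ROBO1 and FHIT are given in full. Other listed genes are named where the lines differed at the start or by at least 3 regions within 10 kb, or had the most regions of a list; for all genes, the 5 with the largest excess per line; and the 5 highest and 5 lowest bins, 3 widest regions and 3 longest empty stretches. Further genes named as examples were chosen after their values were seen. Members and lists were chosen with earlier results of these data known. Values of 1 listed locus and its bin are not reported here.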

Additional observations from a re-analysis of the deposited data

How the results depend on the processing

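No paired analysis was possible because the lists carry no sample numbers, and for the same reason no fit without a sample was made. Of 68 alternatives over 18 results, 32 stayed within the counting interval or within 1.5 times the count, and 36 moved; none turned a direction that its interval had set.

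The ratio of 3p to 3q stayed below 1 throughout. In H82 it was 0.387 by covered bases, 0.436 for regions of at least 500 bp, 0.429 over 1 kb from a start, 0.420 without 44 to 54 Mb and 0.712 against the other autosomes. In H146 it was 0.405 by covered bases, 0.446 over 1 kb from a start, 0.448 without 44 to 54 Mb and 0.723 against the other autosomes. With line-only regions alone the log2 ratio of the lines was -0.17 on 3p and 0.19 on 3q, and by covered bases it was -0.018 on 3q. The shared percentage of 3p in H82 and H146 was 44.4 and 51.8 when 50% of both regions had to overlap, 60.6 and 65.8 for regions of at least 500 bp, and 51.6 and 60.6 over 1 kb from a start. The median widths were 439 and 465 bp over 1 kb from a start, and 485 and 513 bp without regions of 200 bp. With bins of 500 kb 8 reached a log2 ratio of 1 and 5 reached -1; with bins of 2 Mb both counts were 0, and by covered bases 1 bin reached 1. Starts listed in H82 only were 21 with a 5 kb window. Starts listed in H146 only were 3 over all transcripts. Starts listed in neither line were 130 when the region had to cover the start, 35 at 5 kb and 43 over all transcripts. Stretches of at least 300 kb without a region numbered 3 in each line, and stretches of 500 kb without a region of at least 500 bp numbered 8 in H82 and 6 in H146. Canonical starts, added after the data were seen, moved no count by over 1.5 times. The causes of these shifts were not tested. Depth limits every statement that a region was absent, and a site that was not called is not shown to be closed.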
